A study of Mus musculus with 19 samples.

Results

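The genes described here are 10 mouse genes of extracellular proteolysis: the membrane-anchored matrix metalloproteinases Mmp14, Mmp15, Mmp16, Mmp17 and Mmp23, the secreted gelatinase Mmp2, the secreted protease Adamts1, and the tissue inhibitors Timp1, Timp2 and Timp3. They were chosen by family, around differences in Mmp16 and Mmp23 between tumours that were already known from these data, so those differences are given as a description with no test. The 10 genes stand among 32840 gene symbols in the bulk table or the single-cell matrices. The bulk table listed 9 of them, all but Mmp16, and each of the 4 single-cell matrices listed all 10.

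Matrix metalloproteinases are zinc-dependent enzymes that cut collagens, other matrix proteins and cell-surface proteins. The membrane-type enzymes act at the cell surface, where Mmp14 binds Timp2 and the complex captures and activates the proenzyme of Mmp2, while an excess of Timp2 blocks the same enzymes. In melanoma and its stroma this system is known for pericellular matrix breakdown, and fibroblasts are a known source of Mmp2 and of the inhibitors.

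The study examined loss of Bap1, a nuclear deubiquitinase whose gene is often lost in uveal melanoma, in Melan-a, an immortalised mouse melanocyte line. Bulk RNA-seq covered the parental line (BAP1 WT) and 4 CRISPR-engineered BAP1 KO clones, each grown as 2 cultures, with no treatment and under 1 batch name. Each knockout line is 1 clone, and the parental line has no clone of its own beside it, so what the knockout did and what set a clone apart cannot be told apart within a clone. Single-cell RNA-seq covered tumours from Melan-a WT or BAP1 KO cells injected into the eye or under the skin of syngeneic mice, without treatment. There was 1 matrix per genotype and site. The labels do not say which clone gave the KO tumours, nor the age or number of the mice. The genotype and site of a matrix come only from the submitters' names, so the matrices are called "labelled" WT or KO with skin or ocular. KO ocular and WT skin differ in both genotype and site, which cannot be told apart in that pair.

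Depth and label checks come first. The bulk libraries held 30770592 to 46837289 reads. Normalised reads are recovered reads divided by the size factor of the library. For Bap1 they were 4450 and 4392 in the parental line and 359.4 to 1193 over the 8 knockout cultures, or 9.62% to 25.9% of the parental mean by clone, with no overlap. In melanocytic-like cells of the tumours Bap1 was at 42.1 UPM, the UMIs (counted molecules) of a gene per 1000000 UMIs of the class, in the matrix labelled WT skin, 51.5 in that labelled KO skin and 33.6 in that labelled KO ocular. The KO matrices thus stood at 1.22 and 0.798 times WT skin, unlike the cultured clones. Where the probes lie relative to the edits is not stated in the labels, and a probe outside the edited part checks nothing. The matrix labelled WT ocular came from another assay (32285 genes and 16-base barcodes against 19059 and 24), its melanocytic cluster had Ttr, a marker of retinal pigment or ciliary epithelium, among its leading genes, and its values are set beside the others without a fold. No cell barcode was shared between matrices.

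Among the membrane-anchored enzymes, Mmp14, the main activator of Mmp2 at the cell surface, fell in 2 of the 4 cultured clones. Its gene lies on chromosome 14 at 54431598 to 54442456 (GRCm38.p6, RefSeq). The parental cultures had 12180 and 12050 normalised reads. Clone 1 gave 8266 and 8372, clone 2 gave 8802 and 9717, clone 3 gave 10890 and 11090, and clone 4 gave 11110 and 11660. Every knockout culture lay below both parental cultures, as did 12.1% of the 10803 genes tested. Clones 1 and 2 were farthest below, at 68.7% and 76.4% of the parental mean. Clones 3 and 4 stood at 90.7% and 94.0%. The mean of the 4 clones was 9990 ± 1400 (SD, n = 4 clones), against 12100 ± 92 (SD, n = 2 cultures) in the parental line, and with the line as the unit the difference of -0.29 (SE 0.22) did not pass (limma adjusted p = 0.767). In a culture, fewer expressing cells and less RNA per cell cannot be told apart.

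On the deposited stabilised log2 scale Mmp14 fell by 0.53 (SE 0.10, limma adjusted p = 0.0162) in clone 1, where 3.5% of all tested genes passed in either direction and 2.35% were lower. It fell by 0.38 (SE 0.10, limma adjusted p = 0.017) in clone 2, where 26.1% passed and 14.1% were lower. The differences in clones 3 and 4 were -0.14 and -0.09 (limma adjusted p = 0.287 and 0.512). These p-values measure only the spread between the 2 cultures of a line, pooled over all lines. The 4 clone comparisons also share the same parental cultures. The 4 clones differed from each other (limma F test, adjusted p = 0.0126). Without either parental culture the clone 1 call was lost (limma adjusted p = 0.24 and 0.198), and so was that of clone 2 (limma adjusted p = 0.139 and 0.123). The clone 1 call was also lost without the second culture of clone 1 (limma adjusted p = 0.0675) or either culture of clone 3 (0.0511 and 0.0509), and the clone 2 call without the first culture of clone 2 (0.0842). Quantile normalisation brought clone 3 past the threshold (-0.27, limma adjusted p = 0.0375) and ended the call among the clones (limma F test, adjusted p = 0.0564).

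Mmp23 is a type II membrane metalloproteinase that lacks the usual hemopexin domain. It is encoded on chromosome 4 at 155650655 to 155654539, on the same chromosome as Mmp16 (17853072 to 18117479) but far from it. Its promoter window is printed because this gene was higher in 1 clone and in 1 tumour (RefSeq, GRCm38.p6, chr4:155653241-155653540, minus strand, 250 bases before to 50 after a start, GC boxes in capitals):
Mmp23: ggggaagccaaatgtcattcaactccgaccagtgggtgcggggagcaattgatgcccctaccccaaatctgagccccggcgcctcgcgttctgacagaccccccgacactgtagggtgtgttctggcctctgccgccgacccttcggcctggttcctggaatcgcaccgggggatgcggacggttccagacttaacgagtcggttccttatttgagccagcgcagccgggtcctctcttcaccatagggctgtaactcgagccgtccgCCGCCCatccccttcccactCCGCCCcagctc
The GC box searched was GGGCGG on either strand, present in 35.7% of 32851 windows of this length. A second window of Mmp23, from another annotated start, held none.

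The parental cultures had 46.69 and 62.50 normalised reads of Mmp23. Clone 1 gave 52.28 and 109.2, clone 2 gave 76.14 and 82.96, clone 3 gave 75.28 and 70.49, and clone 4 gave 112.4 and 148.8. The range of clone 1 overlapped the parental values, and clone 4 was the highest line. Mmp23 rose in clone 4 by 0.53 (SE 0.14, limma adjusted p = 0.0159), with a mean of 2.39 times the parental. In clone 4, 36.5% of all tested genes passed, 19.3% higher and 17.2% lower. In the other 3 clones the difference was 0.16 to 0.21 and did not pass (limma adjusted p = 0.318 to 0.563). The clone 4 call was lost without either parental culture (limma adjusted p = 0.12 and 0.0514) or without the second culture of clone 4 (0.0875). The difference among the 4 clones did not pass (limma F test, adjusted p = 0.14), but did without the second culture of clone 1 (0.0264).

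The other membrane-anchored enzymes had few reads in culture. Mmp15, a transmembrane relative of Mmp14, ranged from 47.86 to 220.7 normalised reads over the 10 libraries, with 86.71 and 65.14 in the parental cultures. Replicate cultures of clone 4 were as far apart as 72.28 and 220.7, and no clone passed the test (differences -0.16 to 0.37). Without the first culture of clone 4, clone 4 passed (0.77, limma adjusted p = 0.0207), as did the difference among the clones (0.0295). Mmp17, which is held to the membrane by a lipid anchor, ranged from 2.295 to 30.26 normalised reads and was too low to be tested. Its parental cultures had 5.717 and 4.401, below 7 of the 8 knockout cultures. Mmp16, a transmembrane enzyme that also activates Mmp2, was not listed in the bulk table, so its level in the cultured lines is not analysed here.

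**Figure D1:**
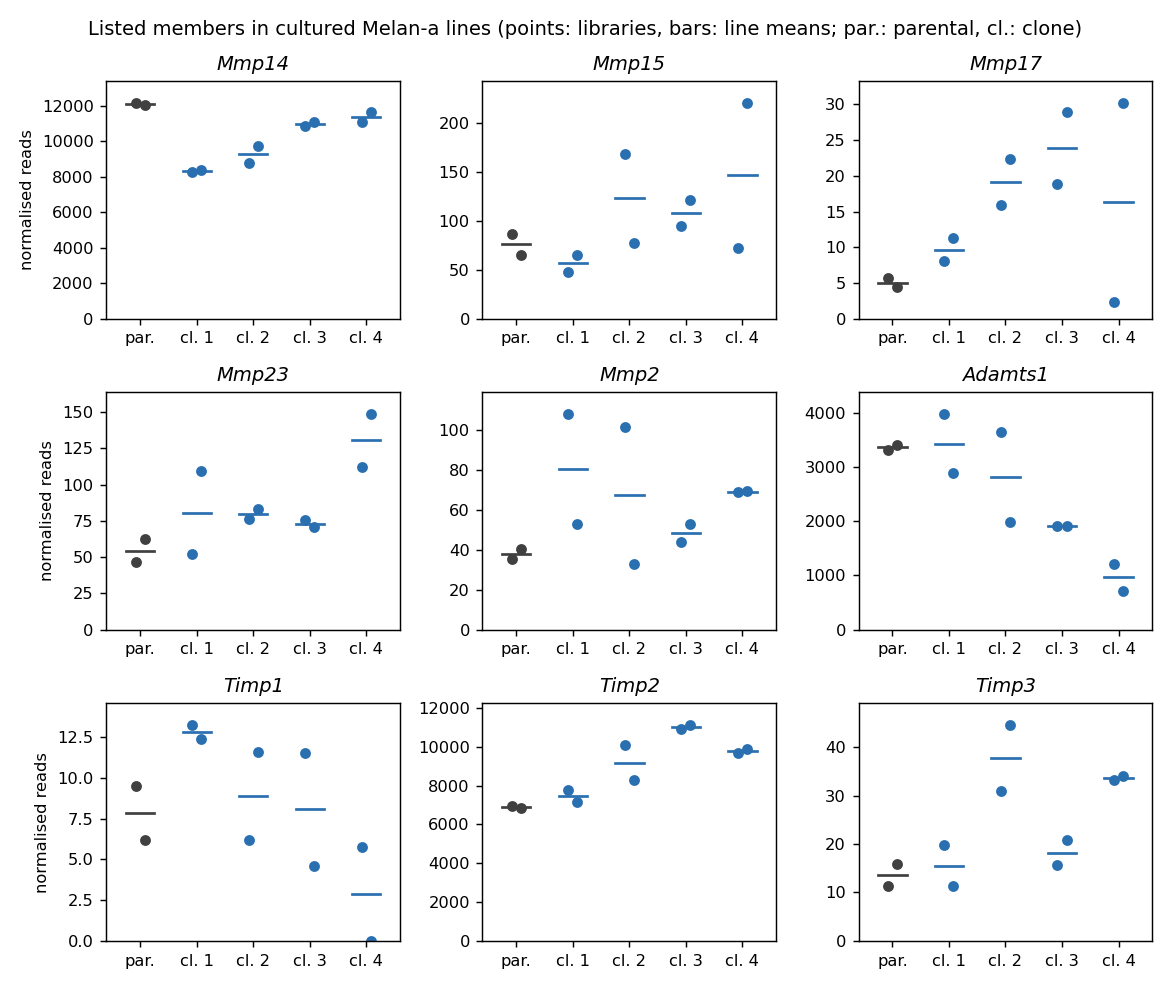
Normalised reads (vertical axes, from 0, 1 scale per gene) of the 9 listed genes in the parental line (par.) and 4 knockout clones (cl.), with 1 point per culture and a bar at each line's mean of 2 cultures. Mmp14 lies below the parental cultures in all 8 knockout cultures and Timp2 above them, and Adamts1 descends to 28.8% of the parental mean in clone 4.

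The plot of normalised reads by line shows how unlike the clones were. Mmp2, the secreted gelatinase activated through Mmp14 and Timp2, had 35.25 and 40.49 normalised reads in the parental cultures and 33.01 to 108.2 in the knockout cultures. Its groups overlapped, and the differences of 0.11 to 0.36 passed in no clone.

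Adamts1, a secreted protease that cleaves proteoglycans such as versican, had the widest range of line means among the 9 genes listed in the bulk table. Its promoter window, with the gene on chromosome 16 at 85793827 to 85803113, held 3 GC boxes (chr16:85803064-85803363, minus strand) and is printed because the gene separated the clones:
Adamts1: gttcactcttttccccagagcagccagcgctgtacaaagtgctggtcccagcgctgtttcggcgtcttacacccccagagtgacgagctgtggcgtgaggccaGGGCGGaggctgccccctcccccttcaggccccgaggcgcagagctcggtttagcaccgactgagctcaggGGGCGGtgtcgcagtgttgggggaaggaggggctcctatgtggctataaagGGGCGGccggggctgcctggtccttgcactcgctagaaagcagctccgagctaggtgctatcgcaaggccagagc
The parental cultures had 3320 and 3407 normalised reads. Clone 1 gave 3979 and 2879, clone 2 gave 3648 and 1979, clone 3 gave 1909 and 1907, and clone 4 gave 1216 and 718.8. Clones 1 and 2 each had 1 culture above and 1 below the parental values, and clones 3 and 4 lay below throughout.

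Adamts1 fell by 0.76 (SE 0.26, limma adjusted p = 0.0412) in clone 3, where 39.8% of all tested genes passed (19.9% higher and the rest lower). In clone 4 it fell by 1.66 (SE 0.26, limma adjusted p = 0.000929), to 28.8% of the parental mean. The values in clones 1 and 2 were 0.01 and -0.30 (limma adjusted p = 0.994 and 0.439). The 4 clones differed (limma F test, adjusted p = 0.00307). The clone 3 call was lost without any 1 of the 4 cultures it compares (limma adjusted p = 0.126 to 0.148). The clone 4 call passed under all 16 alternatives run, which include each culture left out. The genes whose stabilised values followed Adamts1 most closely over the 10 libraries were Mosmo (Pearson r = 0.989), Thap12 (0.98) and Zmynd11 (0.978). The libraries of a line share that line's other differences, and 120 genes had r above 0.9.

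Timp2, the inhibitor that also helps Mmp14 to activate Mmp2, was higher in every knockout culture, whereas Mmp14 was lower in each. Its window held 1 GC box (chr11:118355362-118355661, minus strand, with the gene at 118301061 to 118355411), and it is printed beside that of Adamts1, whose level went in the opposite direction in clones 3 and 4:
Timp2: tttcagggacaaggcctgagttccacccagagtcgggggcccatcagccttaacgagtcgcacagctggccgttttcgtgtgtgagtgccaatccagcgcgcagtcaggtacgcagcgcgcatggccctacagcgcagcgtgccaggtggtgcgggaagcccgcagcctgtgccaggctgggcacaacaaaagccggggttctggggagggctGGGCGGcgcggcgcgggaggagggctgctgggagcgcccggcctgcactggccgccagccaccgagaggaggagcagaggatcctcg
Windows were found for 7 of the 10 genes, 8 in all. None held the AP-1 letters TGACTCA on either strand, which are in 5.2% of all windows. None held the E-box letters CACGTG, which are in 7.15%, nor the second E-box searched, with letters CATGTG, which is in 14.2%. These are matches of letters and not binding sites.

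The parental cultures had 6936 and 6846 normalised reads of Timp2. Clone 1 gave 7769 and 7136, clone 2 gave 10080 and 8295, clone 3 gave 10900 and 11130, and clone 4 gave 9670 and 9890. All 8 knockout cultures lay above both parental cultures, as did 10.9% of the genes tested. Timp2 rose in clone 2 by 0.40 (limma adjusted p = 0.0258), and 12.0% of all tested genes were higher there. It rose in clone 3 by 0.66 (limma adjusted p = 0.00127) and in clone 4 by 0.49 (limma adjusted p = 0.007), each with an SE of 0.11. The means were 133%, 160% and 142% of the parental one. In clone 1 the difference was 0.11 (limma adjusted p = 0.711), and the clones differed from each other (limma F test, adjusted p = 0.0148).

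With the line as the unit Timp2 stood at 9360 ± 1500 normalised reads (SD, n = 4 clones) against 6890 ± 64 (SD, n = 2 cultures), a difference of 0.42 (SE 0.23, limma adjusted p = 0.742). The same comparison for Adamts1 gave 2280 ± 1100 against 3360 ± 62, a difference of -0.68 (SE 0.57, limma adjusted p = 0.782). The clone 3 call of Timp2 passed under all 16 alternatives. Quantile normalisation ended the calls in clone 2 (0.29, limma adjusted p = 0.109) and clone 4 (0.31, limma adjusted p = 0.0709) and that among the clones (limma F test, adjusted p = 0.113). The clone 2 call was lost without either parental culture (limma adjusted p = 0.144 and 0.163), the first culture of clone 2 (0.146) or either of clone 3 (0.0511 each), and the clone 4 call without either parental culture (0.0558 and 0.0645). The call among the clones was lost without the second culture of clone 1 (0.0553) or either of clone 3 (0.0615 and 0.0695). The genes closest to Timp2 over the 10 libraries were Srgap2 (r = 0.976), Fmn1 (0.97) and Pdlim7 (0.969), and 92 genes had r above 0.9.

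Timp1, a soluble inhibitor that acts weakly on membrane-type enzymes, and Timp3, which binds to the matrix and also inhibits ADAM proteases, were too low in culture to be tested. Timp1 ranged from 0 to 13.25 normalised reads with the parental cultures at 9.528 and 6.161. Timp3 ranged from 11.26 to 44.60 with the parental cultures at 11.43 and 15.84. Both Timp3 values of clones 2 and 4 were above the parental ones, at 30.99, 44.60, 33.27 and 34.05.

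Counted over the genes, 1 of the 6 tested passed in clone 1 (3.5% of all tested genes). It was 2 of 6 in clone 2 (26.1% of all), 2 of 6 in clone 3 (39.8%), 3 of 6 in clone 4 (36.5%) and 3 of 6 for the difference among the clones (44.5%). With the line as the unit none of the 6 passed, and 0.0% of all genes did, although 671 of 10803 had an unadjusted limma p under 0.05 and edgeR called 0 as well. The median difference of the 6 genes with the line as the unit was 0.22, against 0.02 over all tested genes. Beside these backgrounds the counts are no result about the 6 genes as a set.

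The wider protease network was described from lists of the same families. Counts of these lists stand beside 3.5%, 26.1%, 39.8% and 36.5% of all tested genes that passed in clones 1 to 4, of which those lower made 2.35%, 14.1% and 17.2% for clones 1, 2 and 4. Clone 3 had 19.9% higher and the remainder lower. Of the 5 ADAM proteases tested, 1, 2, 3 and 2 fell in clones 1 to 4. Adam19, a membrane-bound sheddase, fell in all 4 clones, by 0.82, 0.48, 0.71 and 2.31 (limma adjusted p = 0.00363, 0.0108, 0.000845 and 5.96e-07). Its normalised reads were 1248 and 1203 in the parental cultures and 109 to 917.2 in the knockout cultures, with no overlap. The same held for 12.1% of the genes tested. With the line as the unit the difference of -1.08 (SE 0.65) in Adam19 did not pass (limma adjusted p = 0.744). Adam15 rose in clones 2 and 4 (0.42 and 0.39), Adam17, the sheddase of TNF, fell in clones 2 and 3 (by 0.64 and 0.50), and Adam10 fell in clones 3 and 4 (by 0.55 and 0.43).

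Of the 3 secreted metalloproteinases tested, Mmp28 fell in clones 2, 3 and 4 (by 0.45, 1.01 and 1.06) and Mmp11 rose in clone 3 (0.33). Of the 4 tested ADAMTS genes other than Adamts1, Adamts20 and Adamts12 fell in clone 4 (by 0.76 and 0.56), where 36.5% of all genes passed, and no other clone had a call. Mmp24, the 1 further membrane-type enzyme tested, lay at 52.28 to 87.83 normalised reads in the knockout cultures, below 109.6 and 107.4 in the parental ones, with differences of -0.23 to -0.41 that did not pass. Every knockout culture lay below both parental ones for 12.1% of the genes tested.

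Of the 13 tested activators, inhibitors and receptors, 4 passed in clone 2, 8 in clone 3 and 6 in clone 4, as many higher as lower each time, and none in clone 1, beside 26.1%, 39.8%, 36.5% and 3.5% of all tested genes. Reck, a membrane-anchored inhibitor of these enzymes, fell in clones 2, 3 and 4 (by 0.41, 0.51 and 0.63). Furin, which removes the propeptide of membrane-type enzymes, rose in clones 2 and 3 (0.56 and 0.82). The tetraspanin Cd9 fell in clones 3 and 4 (by 0.76 and 1.32), the proteoglycan Sdc4 fell in clones 2, 3 and 4 (by 0.84, 0.63 and 0.40), and the integrin chain Itgb3 rose in clones 3 and 4 (0.65 and 0.40).

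Markers of other cell types in the cultures were few: 2 of 10 fibroblast markers (Col1a2 and Pdgfra), 2 of 8 keratinocyte markers and 2 of 9 immune markers were listed. Of these, Col1a2 fell in clone 4 (by 0.42, limma adjusted p = 0.041), and Cd68, a lysosomal protein, rose in clones 3 and 4 (0.66 and 0.62). Their part in the results above was not tested.

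In the tumours, cells were grouped by clustering and called melanocytic-like or fibroblast-like from markers. Levels are in UPM and are compared within a gene, not between genes, and intervals are exact 95% Poisson intervals that cover counting error only. There was 1 matrix per condition, so no test was made. Melanocytic-like cells numbered 5224 in the matrix labelled WT skin (median 5709.5 UMIs), 7722 in KO skin (3859.5) and 4005 in KO ocular (11401), with all 12 melanocytic markers detected in at least 10% of these cells. In the WT ocular matrix the nearest group was its cluster 0, with 5714 cells and a median of 2987 UMIs. It was set aside and is not called melanocytic-like, and its melanocytic markers summed to 12600 UPM against 40500 to 63300 in the melanocytic-like cells.

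Melanocytic RNA was present in all other classes too. Summed over the 12 markers it stood, relative to the melanocytic-like cells, at 12.5% to 86.2% in the classes of WT skin, 19.8% to 104% in KO skin and 5.08% to 45.1% in KO ocular. Macrophage-like cells, at 12.5%, 25.5% and 27.4%, were used as the class that should lack a melanocytic gene.

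Of the 10 genes, Mmp16 had the ratio farthest from 1 between melanocytic-like cells of the skin tumours. Its level was 40.2 UPM (interval 38.5 to 42.0, 2021 UMIs) in WT skin, 0.292 (0.160 to 0.490, 14 UMIs) in KO skin, 1.00 (0.791 to 1.25, 77 UMIs) in KO ocular and 1.79 (1.35 to 2.33, 55 UMIs) in the cluster of WT ocular. Of the 3 matrices of 1 assay, that labelled WT skin was high and both KO matrices were low. WT skin was 138 times KO skin (counting interval 81.9 to 252) and 40.1 times KO ocular (31.9 to 51.0). KO ocular was 3.43 times KO skin (1.93 to 6.57), on few UMIs.

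The ratio of KO skin to WT skin was 0.00726 and moved to 0.00403 in cells without fibroblast marker UMIs and to 0.0045 as a mean per cell. The ratio of KO ocular to KO skin was 6.43 with at least 1000 UMIs per cell and 5.95 without cells that had fibroblast marker UMIs. The first ratio ran from 0.00403 to 0.00902 over the alternatives and the second from 3.43 to 6.43.

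Shares of cells were compared with each cell thinned to 2000 UMIs. This left out 648 shallower melanocytic-like cells in WT skin, 1033 in KO skin and 105 in KO ocular, and 1757 cells of cluster 0 in WT ocular. Intervals of shares are exact 95% binomial intervals over the cells of 1 matrix and hold no spread between tumours. After thinning, 8.87% of melanocytic-like cells had an Mmp16 UMI in WT skin (24.4% unthinned), 0.0747% in KO skin (0.168%), 0.256% in KO ocular (1.52%), and 0.43% of the cells of WT ocular cluster 0 had one (0.945%). In macrophage-like cells the thinned shares were 0.263% in WT skin (median 6379 UMIs), 0 of 1108 cells in KO skin (median 3750 UMIs, up to 0.332%), 0 of 518 in KO ocular (median 11896 UMIs, up to 0.71%) and 0.251% in WT ocular (median 2554.5 UMIs). In WT skin the melanocytic-like share (8.06% to 9.73%) is above that of macrophage-like cells (up to 0.768%). It is also above those of monocyte-like (3.38%, up to 7.71%) and fibroblast-like cells (2.86%, up to 5.07%). Its interval overlaps those of neutrophil-like (6.73%, 2.75% to 13.4%, 104 cells) and endothelial-like cells (3.0%, 0.623% to 8.52%, 100 cells). Some classes were not thinned, among them hepatocyte-like and keratinocyte-like cells, whose melanocytic markers stood at 86.2% and 60.4%. In level, 2 of 10 other classes of WT skin were above the melanocytic-like cells for Mmp16. In KO skin and in cluster 0 of WT ocular the thinned Mmp16 share is not above the macrophage-like limit (0.332% and 0.905%). It cannot be told apart from background there. In KO skin no macrophage-like cell had an Mmp16 UMI, thinned or unthinned, so that class showed no background of its own.

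In KO ocular the thinned share is within the limit that 0 of 518 cells allows, but the unthinned cells, of similar depth, differed. There 61 of 4005 melanocytic-like cells (1.52%) and 2 of 611 macrophage-like cells (0.327%) had an Mmp16 UMI. The macrophage-like level was 0.267 UPM (0.0551 to 0.781), below the interval of the melanocytic-like one (0.791 to 1.25). Since the KO skin level cannot be told apart from background, its ratio to KO ocular is given by size only.

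Mmp23 had the reverse pattern between the skin tumours. Its level in melanocytic-like cells was 2.55 UPM (2.12 to 3.03, 128 UMIs) in WT skin, 24.2 (22.8 to 25.6, 1160 UMIs) in KO skin, 1.95 (1.65 to 2.29, 150 UMIs) in KO ocular and 0.75 (0.475 to 1.12, 23 UMIs) in the cluster of WT ocular. The matrix labelled KO skin stood above those labelled WT skin and KO ocular, and KO ocular lay at 0.767 times WT skin (0.602 to 0.979). KO skin was 9.5 times WT skin (7.91 to 11.5) and 12.4 times KO ocular (10.4 to 14.8). With cells chosen by their markers alone, whatever their cluster, the KO skin to WT skin ratio was 3.42.

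Thinned to 2000 UMIs, 6.19% of melanocytic-like cells of KO skin had an Mmp23 UMI (12.8% unthinned), against 0.451% of macrophage-like cells. That share (5.62% to 6.79%) was also above the monocyte-like one (1.13%, up to 4.02%) and below the fibroblast-like one. Its interval overlapped those of erythroid-like (3.95%, 0.822% to 11.1%), endothelial-like (2.56%, 0.703% to 6.43%) and neutrophil-like cells (1.98%, 0.241% to 6.97%). The melanocytic-like share was 0.699% in WT skin (2.26% unthinned) and 0.41% in KO ocular (3.45%), with 0.176% (up to 0.633%) and 0 of 518 cells (up to 0.71%) in the macrophage-like cells. The interval of the thinned WT skin share (0.479% to 0.986%) overlaps that of its macrophage-like cells. Without thinning, at median depths of 5709.5 and 6379 UMIs, the WT skin shares were 2.26% in melanocytic-like and 0.908% in macrophage-like cells. The unthinned shares of monocyte-like (2.5%), endothelial-like (3.82%) and fibroblast-like cells (34.5%) of WT skin were above the melanocytic-like one. Unthinned, at similar depth, KO ocular had an Mmp23 UMI in 3.45% of melanocytic-like and 0.164% of macrophage-like cells, at 1.95 and 0.178 UPM (0.0216 to 0.643). The clone with the highest Mmp23 in culture was clone 4, and whether clone 4 gave the tumour is not stated in the labels.

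**Figure D2:**
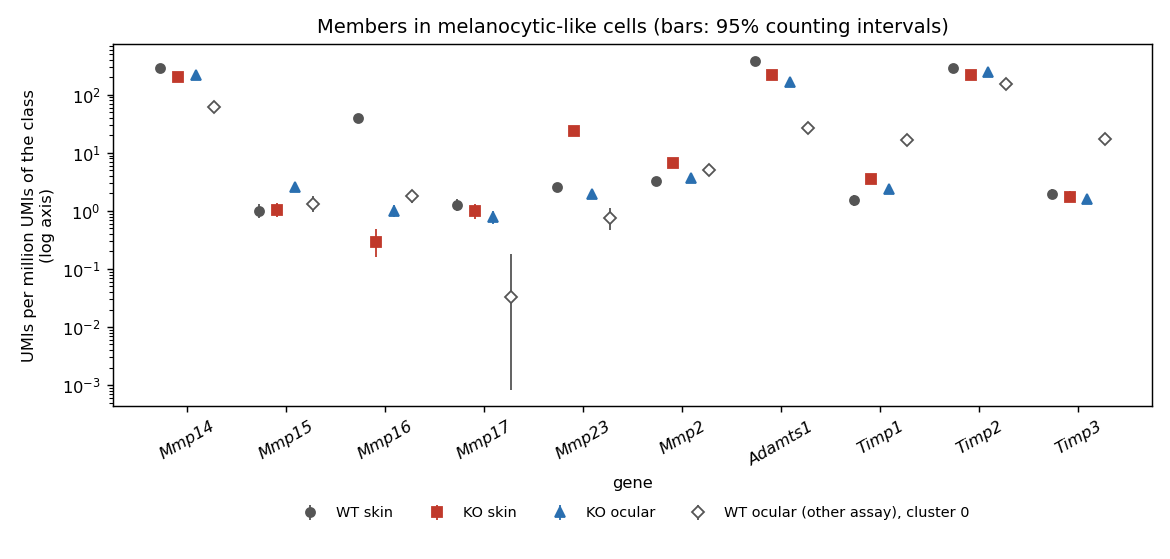
UPM (UMIs per 1000000 UMIs of the class, vertical axis, log scale) of the 10 genes in melanocytic-like cells of the matrices labelled WT skin, KO skin and KO ocular and in cluster 0 of that labelled WT ocular, which comes from another assay. Bars are 95% counting intervals, and the widest separations are Mmp16 (40.2 in WT skin against 0.292 in KO skin) and Mmp23 (24.2 in KO skin against 2.55 in WT skin).

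Both differences were seen cluster by cluster, as the plot of levels by matrix and cluster shows. In WT skin Mmp16 ran from 28.1 in the cycling cluster 8 (led by Mki67 and Cenpf) to 90.8 in cluster 0, which had the lowest median depth of its 4 clusters, 2914 UMIs. In KO skin it ran from 0 to 0.622 over 7 clusters. In KO ocular it was 0.424 to 1.34 in 5 clusters and 6.89 in cluster 14, a cycling cluster of 205 cells with 22 of the 77 UMIs. The part of depth in these levels was not tested.

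Mmp23 ran from 10.1 to 43.3 UPM over the KO skin clusters, from 1.73 to 6.1 over those of WT skin and from 0.997 to 4.63 over those of KO ocular. The KO skin range thus lay above both others. Its 2 lowest clusters were the heat-shock cluster 7 (led by Hspa1b), at 10.1, and the cycling cluster 5, at 10.5. Clusters with a melanocytic score but a marker of another class among their 10 leading genes were set aside. They held 215 cells in WT skin (a Schwann cell marker), where Mmp16 was 7.24. In KO skin they held 1911 cells in 2 clusters (a retinal pigment or ciliary epithelium marker and a lens marker), where Mmp23 was 22.5 and 12.8.

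**Figure D3:**
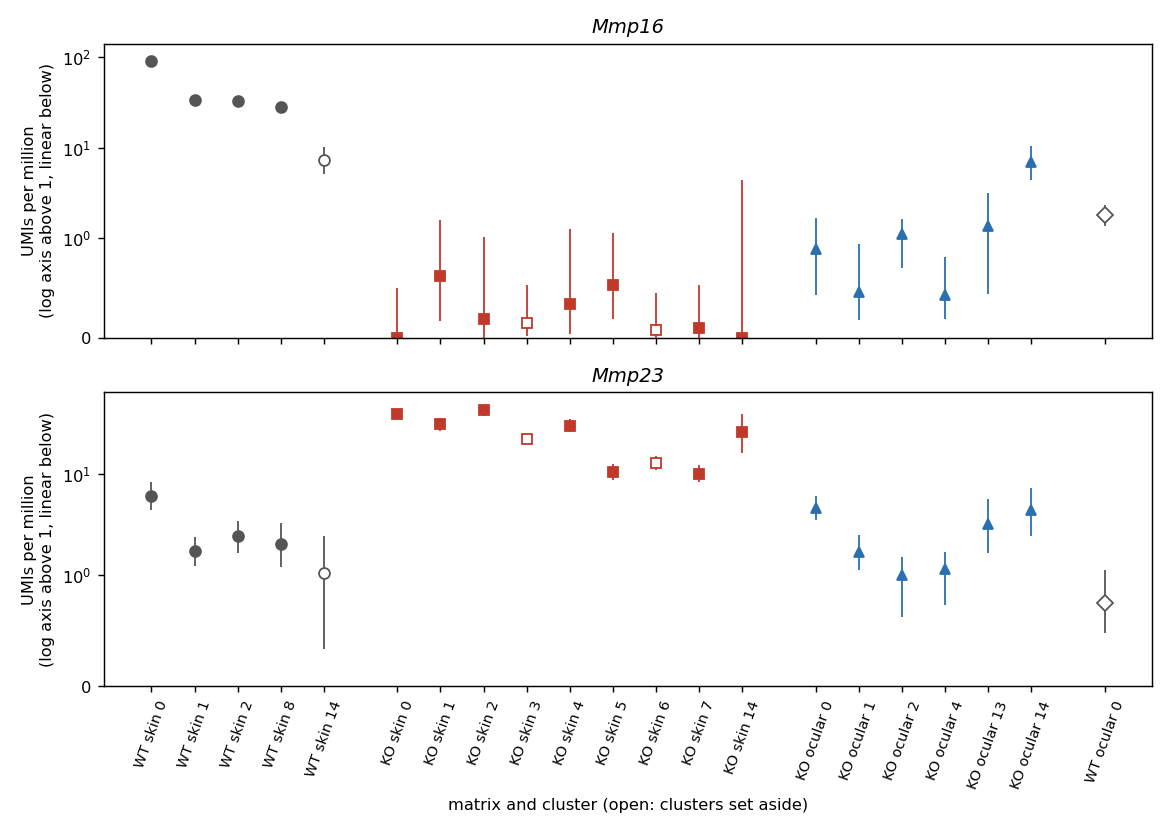
UPM (vertical axes, log scale above 1 and linear below) of Mmp16 and Mmp23 in each melanocytic-like cluster of the 4 matrices, with clusters set aside and cluster 0 of WT ocular as open symbols and 95% counting intervals as bars. The 4 filled WT skin clusters lie at 28.1 to 90.8 for Mmp16 and all 7 filled KO skin clusters at 0 to 0.622.

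The other membrane-anchored enzymes differed less. Mmp14 stood at 285 UPM in melanocytic-like cells of WT skin, 203 in KO skin and 219 in KO ocular, which is 0.714 times (0.695 to 0.732) in KO skin over WT skin and 1.08 times (1.05 to 1.11) in KO ocular over KO skin. Mmp15 was 1.01, 1.04 and 2.58, and Mmp17 was 1.27, 0.98 and 0.781. Mmp15 in KO ocular was 2.47 times KO skin (1.80 to 3.44), while the counting interval of Mmp17 included 1 (0.535 to 1.19).

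Among the secreted proteases and inhibitors of melanocytic-like cells, Adamts1 descended from 386 in WT skin to 223 in KO skin and 164 in KO ocular, a ratio of 0.578 (0.565 to 0.592) between the skin tumours and 0.426 (0.416 to 0.435) for KO ocular over WT skin. Timp2 was 287, 223 and 247, so it was lower in KO skin than in WT skin (0.777 times, 0.758 to 0.797), whereas it had risen in 3 of the 4 cultured clones. Mmp2 was 3.26, 6.76 and 3.63, Timp1 was 1.53, 3.50 and 2.42, and Timp3 was 1.95, 1.77 and 1.63.

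For Mmp2, Timp1 and Timp3 the fibroblast-like level was 140 to 562 times the melanocytic-like one in WT skin, KO skin and KO ocular, and in WT ocular it was 27.1, 142 and 22.4 times that of cluster 0. In WT skin and KO ocular the macrophage-like cells had higher levels of Mmp2 (10.1 and 6.32) and Timp1 (17.7 and 12.1) than the melanocytic-like cells. The part of free RNA in them was not tested.

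Adamts1 also varied within the tumours. It was 786 in the WT skin cluster 2, led by the hypoxia-responsive genes Car9 and Ero1l, and 166 to 339 in the other 3 clusters. In KO ocular it was 618 in cluster 13, led by the stress-responsive genes Hspa1b and Fosb, and 95.7 to 193 in the other 5. In KO skin the 7 clusters lay between 165 and 308.

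Of the 10 genes, 3 were more than 2-fold higher (Mmp2, Mmp23 and Timp1) and 1 more than 2-fold lower (Mmp16) in KO skin than in WT skin. Over 13376 genes with at least 20 UMIs in the pair, 31.0% were past 2-fold in either direction, 19.9% higher and 11.1% lower. The median ratio of the 10 was 0.843, against 1.17 for all these genes. In KO ocular over KO skin 2 were past 2-fold higher (Mmp15, and Mmp16 over a KO skin level not told apart from background) and 1 lower (Mmp23), beside 25.5% of genes past 2-fold (5.82% higher and 19.7% lower) and a median ratio of 0.858 against 0.819. In KO ocular over WT skin 1 was higher (Mmp15) and 2 were lower (Mmp16 and Adamts1), beside 24.3% of genes (8.81% higher and 15.5% lower). These comparisons share matrices, and their values are given side by side only.

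Fibroblast-like cells carried another set of these genes. They numbered 505 in WT skin, 200 in KO skin, 146 in KO ocular and 1021 in WT ocular, with 9, 9, 9 and 7 of 10 fibroblast markers detected in at least 10% of the cells. Their melanocytic markers stood at 49.3%, 61.0%, 45.1% and 43.4% of the level in melanocytic-like cells (of cluster 0 in WT ocular), and the part of that RNA in the levels was not tested.

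Mmp2 was 720 UPM (696 to 745) in fibroblast-like cells of WT skin, 945 (900 to 992) in KO skin, 578 (548 to 609) in KO ocular and 135 (125 to 146) in WT ocular. These levels were 221, 140 and 159 times those of melanocytic-like cells of the same matrix, and 27.1 times that of cluster 0 in WT ocular. Mmp14 was 942, 927, 724 and 185, or 3.31, 4.57, 3.31 and 3.02 times the same groups. Between the skin tumours Mmp14 did not differ beyond its counting interval (ratio 0.984, 0.929 to 1.04), and Mmp2 was 1.31 times (1.24 to 1.39) in KO skin.

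Mmp23 in fibroblast-like cells was 76.4 (68.7 to 84.8) in WT skin, 99.0 (84.9 to 115) in KO skin, 27.1 (20.9 to 34.4) in KO ocular and 26.2 (21.7 to 31.2) in WT ocular. Among the 3 matrices of 1 assay KO ocular was the lowest, and KO skin was 1.30 times WT skin (1.07 to 1.56), against 9.5 times in melanocytic-like cells. After thinning, 17.4% of the fibroblast-like cells of WT skin and 17.7% of those of KO skin had an Mmp23 UMI (34.5% and 36.0% unthinned). With cells chosen by markers alone the 2 levels were 19.1 and 37.0.

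Mmp16 in fibroblast-like cells was 14.5 (11.2 to 18.4, 67 UMIs) in WT skin, 3.42 (1.25 to 7.43, 6 UMIs) in KO skin, 6.97 (4.06 to 11.2, 17 UMIs) in KO ocular and 5.58 (3.64 to 8.17, 26 UMIs) in WT ocular. Of the 3 matrices of 1 assay KO skin was the lowest here too, at 0.236 times WT skin (0.0837 to 0.541). In WT skin the fibroblast-like level was 0.361 times the melanocytic-like one, beside 49.3% for the melanocytic markers, and in KO skin and KO ocular it was 11.7 and 6.97 times. With cells chosen by markers alone these differences were smaller between the classes: fibroblast-like levels were 23.6, 1.01 and 3.67 in WT skin, KO skin and KO ocular, against 29.3, 0.264 and 1.28 in melanocytic-like cells. The KO skin level in fibroblast-like cells was then farther below that of WT skin. Mmp15 was 1.73 to 5.74 and Mmp17 was 0.643 to 8.20 over the 4 matrices, on 3 to 38 UMIs.

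**Figure D4:**
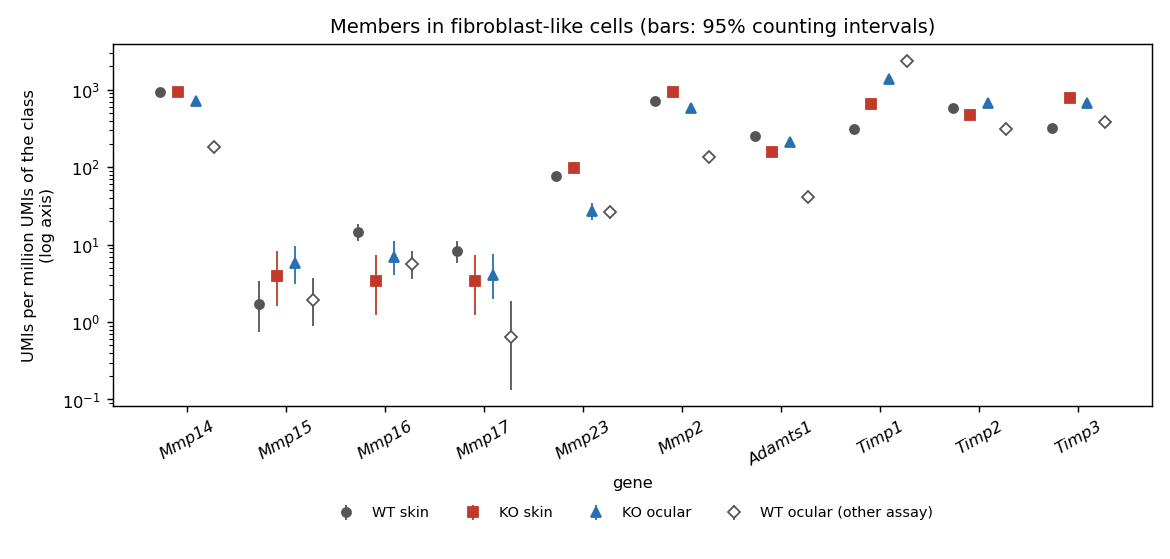
UPM (UMIs per 1000000 UMIs of the class, vertical axis, log scale) of the 10 genes in fibroblast-like cells of the 4 matrices, with 95% counting intervals as bars and the WT ocular matrix, from another assay, as open symbols. Timp1 lies at 313 in WT skin, 660 in KO skin and 1360 in KO ocular, while Mmp14 lies at 942, 927 and 724.

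Timp1 and Timp3 of fibroblast-like cells were higher in KO skin and in KO ocular, which also differs in site, than in WT skin. Timp1 was highest in WT ocular, from the other assay. Timp1 was 313 (297 to 330) in WT skin, 660 (622 to 699) in KO skin, 1360 (1310 to 1410) in KO ocular and 2350 (2310 to 2390) in WT ocular. Timp3 was 321 (305 to 338), 778 (737 to 820), 680 (647 to 713) and 381 (364 to 399). KO skin over WT skin was 2.11 times (1.95 to 2.28) for Timp1 and 2.43 times (2.25 to 2.61) for Timp3.

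Timp1 in KO ocular was 2.06 times KO skin (1.93 to 2.21). The plot of fibroblast-like levels shows Timp2 less apart, at 576, 478, 669 and 307, and Adamts1 at 250, 156, 214 and 41.8. Each value comes from 1 matrix, and the WT ocular matrix shares no assay with the other 3.

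Of the 9 genes with at least 20 UMIs in fibroblast-like cells of the skin tumours, 2 were more than 2-fold higher in KO skin (Timp1 and Timp3) and 2 lower (Mmp16 and Mmp17), beside 17.6% of 11604 genes in either direction (9.13% higher and 8.51% lower). In KO ocular over KO skin 2 of 9 were higher (Timp1 and Mmp16, the latter at 2.04 times with an interval of 0.768 to 6.32) and 1 lower (Mmp23), beside 21.4% of genes (11.4% higher and 9.96% lower). In KO ocular over WT skin 3 of 10 were higher (Mmp15, Timp1 and Timp3) and 3 lower (Mmp16, Mmp17 and Mmp23), beside 15.2% (8.06% higher and 7.09% lower). Of 10 secreted metalloproteinases other than Mmp2, 6 were more than 2-fold lower in fibroblast-like cells of KO skin and none higher, beside 8.51% of all genes lower and with a median ratio of 0.359 against 1.07 for all genes. The collagenase Mmp13 went from 2200 to 90.5 (0.0412 times, 0.0350 to 0.0481), the gelatinase Mmp9 from 507 to 7.97 and the stromelysin Mmp10 from 1380 to 82.5. Mmp3 went from 2850 to 653, Mmp12 from 592 to 115 and Mmp8 from 15.1 to 7.4. The fibroblast-like class joined 2 clusters in WT skin and was 1 cluster in KO skin. The part of the clusters, and of RNA from other cells, in these levels was not tested. Mmp13 stood at 1330 in KO ocular. The secreted enzymes named from the cultures differed less between the skin tumours. Mmp11 went from 106 in WT skin to 151 in KO skin, and Mmp28 from 3.89 to 2.28 (18 and 4 UMIs).

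Other classes led for some genes. Mmp15 was highest in endothelial-like cells in all 4 matrices, at 82.0, 104, 187 and 15.2 UPM in WT skin, KO skin, KO ocular and, in the other assay, WT ocular. Timp2 was highest in macrophage-like cells in WT skin, KO skin and KO ocular, at 1220, 953 and 856. Mmp14 and Mmp2 were highest in fibroblast-like cells in all 4 matrices. In KO ocular, Timp3 was highest in the retinal pigment or ciliary epithelium-like cells (2650), and Timp1 (4510), Adamts1 (808) and Mmp16 (20.5) in the Müller glia or astrocyte-like cells. In WT skin, Mmp16 was highest in T or NK-like cells, at 60.5 on 13 UMIs in 104 cells with a median of 905.5 UMIs.

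The named genes of the culture lists had these values in melanocytic-like cells. Reck was 0.189 times (0.161 to 0.222) in KO skin over WT skin, at 3.84 against 20.3 UPM. Adamts12 was 4.31 times (3.73 to 4.99) and Adam15 2.19 times (2.11 to 2.27). Adam19, which fell in every cultured clone, was 1.15 times (1.03 to 1.28) there and 0.242 times (0.209 to 0.279) in KO ocular over KO skin. Cd9 was 0.725 times, and Furin was 0.987 times (0.954 to 1.02). The remaining named genes were within 2-fold, given here as UPM in KO skin against WT skin. Mmp28 was 0.334 against 0.338, Mmp11 0.98 against 1.05, Adam10 484 against 517 and Adam17 55.9 against 78.7. Adamts20 was 13.6 against 20.1, Sdc4 234 against 230 and Itgb3 92.8 against 73.3. Of all genes, 31.0% were past 2-fold between these cells. In KO ocular over KO skin, 9 of 12 secreted metalloproteinases other than Mmp2 were more than 2-fold lower, beside 19.7% of 13374 genes, with a median ratio of 0.248 against 0.819 for all genes. A gene was counted with at least 20 UMIs summed over the pair, so it could enter through KO skin alone. Mmp7 (23 UMIs, 0.48 UPM in KO skin) and Mmp20 (43 UMIs, 0.897 UPM) did so at low levels, and the count is a description only. In KO skin, fibroblast-like cells had far more of secreted metalloproteinases such as Mmp3 (653 against 4.94 UPM) and Mmp13 (90.5 against 6.07). The part of fibroblast RNA in the melanocytic-like levels was not tested.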

How the data were processed

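The authors deposited bulk expression as variance-stabilised values on a log2-like scale for 13202 genes. The library kit was stranded and selected polyadenylated RNA, per the labels' protocols; no aligner or counter is named in the sources used here. Inverting that scale gave whole reads for 100% of values, to within 0.01 of a whole number. Genes whose mean was at least 1 above the lowest value, 6.61, were tested (10803).

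limma 3.58.1 with a mean-variance trend and Benjamini-Hochberg adjustment (threshold 0.05) fitted the 10 libraries as 5 groups, and line means for the line as unit. edgeR 4.0.16 on the recovered reads called 299, 2778, 4238 and 3863 genes in clones 1 to 4. Replicate numbers were not used as pairs in the main fit, although same-numbered cultures correlated in 5 of 10 pairs of lines (r -0.13 to 0.73). Single-cell UMI counts were deposited as raw matrices written by Cell Ranger 8.0.0, or 7.0.0 for WT ocular, per the file headers, with the builds GRCm38 and mm10, per the submitters' processing notes.

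Cells with at least 500 UMIs, 200 genes and under 20% mitochondrial UMIs were kept: 11682 of 11810 (WT skin), 13111 of 13167 (KO skin), 26143 of 38176 (WT ocular) and 9398 of 11283 (KO ocular). They were clustered in scanpy 1.11.5 (2000 variable genes without the listed proteases and inhibitors, 30 components, 15 neighbours, Leiden resolution 1.0). Thresholds for naming clusters were set after the clusters were seen, so class names are rebuilt. Scrublet called 0.0% of cells in 3 matrices, so it did not work there, and 1.2% in KO ocular. Doublets were kept, and leaving out the top 5% by score was an alternative.

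The genes, lists and tests were chosen with earlier results of these data known. Named genes were the 10 genes and, per list, up to 5 with the largest difference among those called in a clone. Mmp3, Mmp7, Mmp8, Mmp9, Mmp10, Mmp12, Mmp13, Mmp20 and Mmp24 were named outside this rule. For the 2 genes with the widest line means, the 3 genes of highest correlation were also named. Scripts were tested on simulated data. Whole-genome and whole-exome samples were not used here. One alternative, with the clusters set aside, was added after seeing the data.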

Additional observations from a re-analysis of the deposited data

Results flagged for a closer look

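The 4 clones differed from each other for 3 of the 6 tested genes by a limma F test over all genes. That test compared the clones with each other and not with the parental line. By the limma F test the adjusted p was 0.0126 for Mmp14, 0.0148 for Timp2 and 0.00307 for Adamts1. Of all tested genes 44.5% differed among the clones by the same test. Mmp14 was lowest in clone 1, at 68.7% of the parental mean, Adamts1 was lowest in clone 4, at 28.8%, and Timp2 was highest in clone 3, at 160%.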

How the results depend on the processing

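The 10 genes' counts of calls were rerun under 6 other settings and with each library or clone left out. Quantile normalisation left 1 of 6 genes called in clone 2 and 1 for the difference among the clones. With 1 library left out, calls ranged from 0 to 1 in clone 1, 0 to 2 in clone 2, 1 to 2 in clone 3, 1 to 4 in clone 4, 2 to 4 among the clones and 0 to 0 with the line as unit. With the replicate block 1, 2, 2 and 3 genes were called in clones 1 to 4 and 3 among the clones, as without it. Same-numbered cultures correlated in only 5 of 10 pairs (r -0.13 to 0.73). With cells chosen by markers alone, the Mmp23 ratio was 3.42 for KO skin over WT skin and 0.136 for KO ocular over KO skin. The Mmp16 and Mmp23 ratios of these pairs did not reverse under any setting run. The levels themselves were less stable. Under other settings 205 levels in cells moved outside the main counting interval and 275 did not. The counting intervals of the levels thus do not cover the choice of settings. The 14 and 77 Mmp16 UMIs of KO skin and KO ocular leave wide counting intervals. The KO ocular cells were nonetheless the deepest (median 11401 UMIs against 5709.5 in WT skin). With 1 matrix per condition there is no spread between tumours.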
